A study of Mus musculus with 14 samples.

Results

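Interferon-stimulated genes are the genes that cells switch on when they sense interferon, and 41 of them were followed here in the ileum, the last stretch of the small intestine, of young C57BL/6N mice. The 41 were chosen by name, and all were found among the 46855 genes of the deposited expression table. The mice, all wild type, came from 4 groups. They were 4 untreated mice at postnatal day 24 (P24), 4 untreated mice at day 14 (P14), 3 mice injected with recombinant mouse interleukin-22 (rmIl22) and 3 mice injected with phosphate-buffered saline (PBS). Injections into the abdominal cavity were given on days 14 and 15 and the mice were killed on day 16; the rmIl22 dose was 0.1 µg for each g of weight, carried in 100 µL of saline. RNA came from whole ileum, so fewer cells of a type and less RNA per cell cannot be told apart.

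Interferons act in families. Type I and type III interferons (interferon alpha, beta and lambda) signal through the kinases JAK1 and TYK2 to a complex that holds STAT2 and IRF9 and binds the interferon-stimulated response element in DNA. Interferon gamma signals through JAK1 and JAK2 and acts on a different element. In the intestine, epithelial cells respond to interferon lambda and the immune cells beneath them mainly to type I interferon. The genes induced make sensors of viral RNA, enzymes and binding proteins that block viral growth, GTPases that attack intracellular microbes, and brakes on the response. Interleukin-22 is a cytokine of lymphoid cells that acts on epithelium through STAT3. One chain of its receptor, IL10RB, is shared with the interferon lambda receptor.

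The libraries held between 35648664 and 46460765 reads in genes, numbers worked back from the deposited levels as the smallest that fit, so they may be too low. Saa1, an acute phase gene that interleukin-22 induces, had 1870.1, 1882 and 1634 TPM (a transcript level scaled for gene length and library depth) in rmIl22 ileum, against 24.7, 27.8 and 7.28 TPM in PBS ileum. The ileal bile acid binding protein gene Fabp6 was detected in all 14 libraries, at 214 to 21407 TPM. Xist, which is transcribed in female cells, was between 28.4 and 73.0 TPM in P24 libraries 2, 6 and 8, P14 libraries 4 and 5 and rmIl22 libraries 2 and 3, and at most 0.160 TPM in the others, including the 3 PBS libraries. High Xist was thus found in 2 of 3 rmIl22 libraries and in 0 of 3 PBS libraries. rmIl22 library 2 stood apart from its group. Its granulocyte and mast cell markers summed to 1035 TPM, against 18.1 and 168 TPM in the other rmIl22 libraries. S100a9 (627 TPM) and S100a8 (400 TPM) made up nearly all of that sum. Ly6g was at 1.38 TPM there, and the mast cell genes Mcpt1 (2.23 TPM) and Mcpt2 (1.75 TPM) were the lowest of their group. Sample titles call all injected mice P14, and in the labels' age field the rmIl22 mice are listed as day 24 and those given PBS as day 14, neither of which is the stated day 16.

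The letters that the interferon-activated factors read were found upstream of many of the 41 genes. The response element core was searched as GAAA, any 2 bases and GAAA again, or on the other strand TTTC, any 2 bases and TTTC, in the 250 bases before the start of each gene in RefSeq (GRCm38.p6). Such windows were at hand for 31 of the 41 genes, and 17 of them (54.8%) held the core, against 3.46% of all 27025 genes with a window. The palindrome read by STAT proteins, searched as TTCNNNGAA, was found in 5 of the 31 (16.1%) and in 8.13% of all genes. Overlapping matches were counted once per gene, and a match is a description of letters, not a tested binding site. The next 6 windows are shown because their genes are among those that changed most in the comparisons that follow, or, for Apol9a and Apol9b, because nearly identical windows went with different changes. Capitals mark the core on either strand.
Isg15: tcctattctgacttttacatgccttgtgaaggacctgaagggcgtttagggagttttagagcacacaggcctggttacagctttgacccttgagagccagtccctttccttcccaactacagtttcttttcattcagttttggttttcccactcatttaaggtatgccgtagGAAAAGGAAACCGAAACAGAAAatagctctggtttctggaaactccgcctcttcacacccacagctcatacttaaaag
Ifit1: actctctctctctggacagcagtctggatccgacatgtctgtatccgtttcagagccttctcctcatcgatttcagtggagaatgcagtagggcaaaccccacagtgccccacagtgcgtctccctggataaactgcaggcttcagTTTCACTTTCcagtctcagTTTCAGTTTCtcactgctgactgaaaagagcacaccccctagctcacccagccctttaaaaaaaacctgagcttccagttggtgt
Ifit3: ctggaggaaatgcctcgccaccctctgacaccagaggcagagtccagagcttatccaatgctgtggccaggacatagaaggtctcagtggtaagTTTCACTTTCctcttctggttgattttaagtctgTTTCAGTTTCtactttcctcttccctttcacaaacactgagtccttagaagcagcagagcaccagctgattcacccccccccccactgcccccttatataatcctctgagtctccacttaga
Rsad2: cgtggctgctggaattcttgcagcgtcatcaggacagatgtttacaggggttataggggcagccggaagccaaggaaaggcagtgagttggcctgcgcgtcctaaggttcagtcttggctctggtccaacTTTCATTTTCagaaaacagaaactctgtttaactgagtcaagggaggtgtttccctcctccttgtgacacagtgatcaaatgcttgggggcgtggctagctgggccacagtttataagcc
Apol9a: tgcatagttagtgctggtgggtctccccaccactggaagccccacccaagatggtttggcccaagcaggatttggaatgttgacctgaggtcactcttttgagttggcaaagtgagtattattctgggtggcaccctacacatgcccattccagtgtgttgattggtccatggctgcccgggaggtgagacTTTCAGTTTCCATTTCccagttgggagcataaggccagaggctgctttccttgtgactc
Apol9b: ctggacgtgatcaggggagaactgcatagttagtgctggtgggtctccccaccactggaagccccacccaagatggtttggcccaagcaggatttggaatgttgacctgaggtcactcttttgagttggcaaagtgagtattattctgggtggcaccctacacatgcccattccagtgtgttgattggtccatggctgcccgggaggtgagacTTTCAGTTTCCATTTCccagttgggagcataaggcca
The Isg15 window lies at chr4:156200819-156201068 (minus strand), that of Ifit1 at chr19:34640639-34640888 (plus strand), that of Ifit3 at chr19:34583279-34583528 (plus strand) and that of Rsad2 at chr12:26456453-26456702 (minus strand). Those of Apol9a and Apol9b lie at chr15:77411081-77411330 (minus strand) and chr15:77728822-77729071 (plus strand). Isg15 held 3 overlapping cores in a row, the first beginning 78 bases before the start. The Apol9a and Apol9b windows shared a stretch of 228 bases without a single difference, including both cores.

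Levels of the 41 genes spanned a wide range. By group mean, the lowest was Ifi44 at 1.82 TPM in P24 ileum, and Oas2 at 0.269 TPM in P14, 0.573 TPM in rmIl22 and 0.847 TPM in PBS ileum. The highest was Irf7 at 115.9 TPM in P24 ileum, and Ifit1 at 198 TPM in P14, 109.9 TPM in rmIl22 and 298 TPM in PBS ileum. The middle gene of the list had 16.1 TPM in P24, 16.7 TPM in P14, 16.9 TPM in rmIl22 and 33.3 TPM in PBS ileum. Of the 4 group means, that of PBS ileum was the highest for 29 of the 41 genes, that of P24 for 10 and that of rmIl22 for 2, while P14 was the highest for none. No gene was lowest in PBS ileum. The heatmap of all genes and libraries shows this order.

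**Figure D1:**
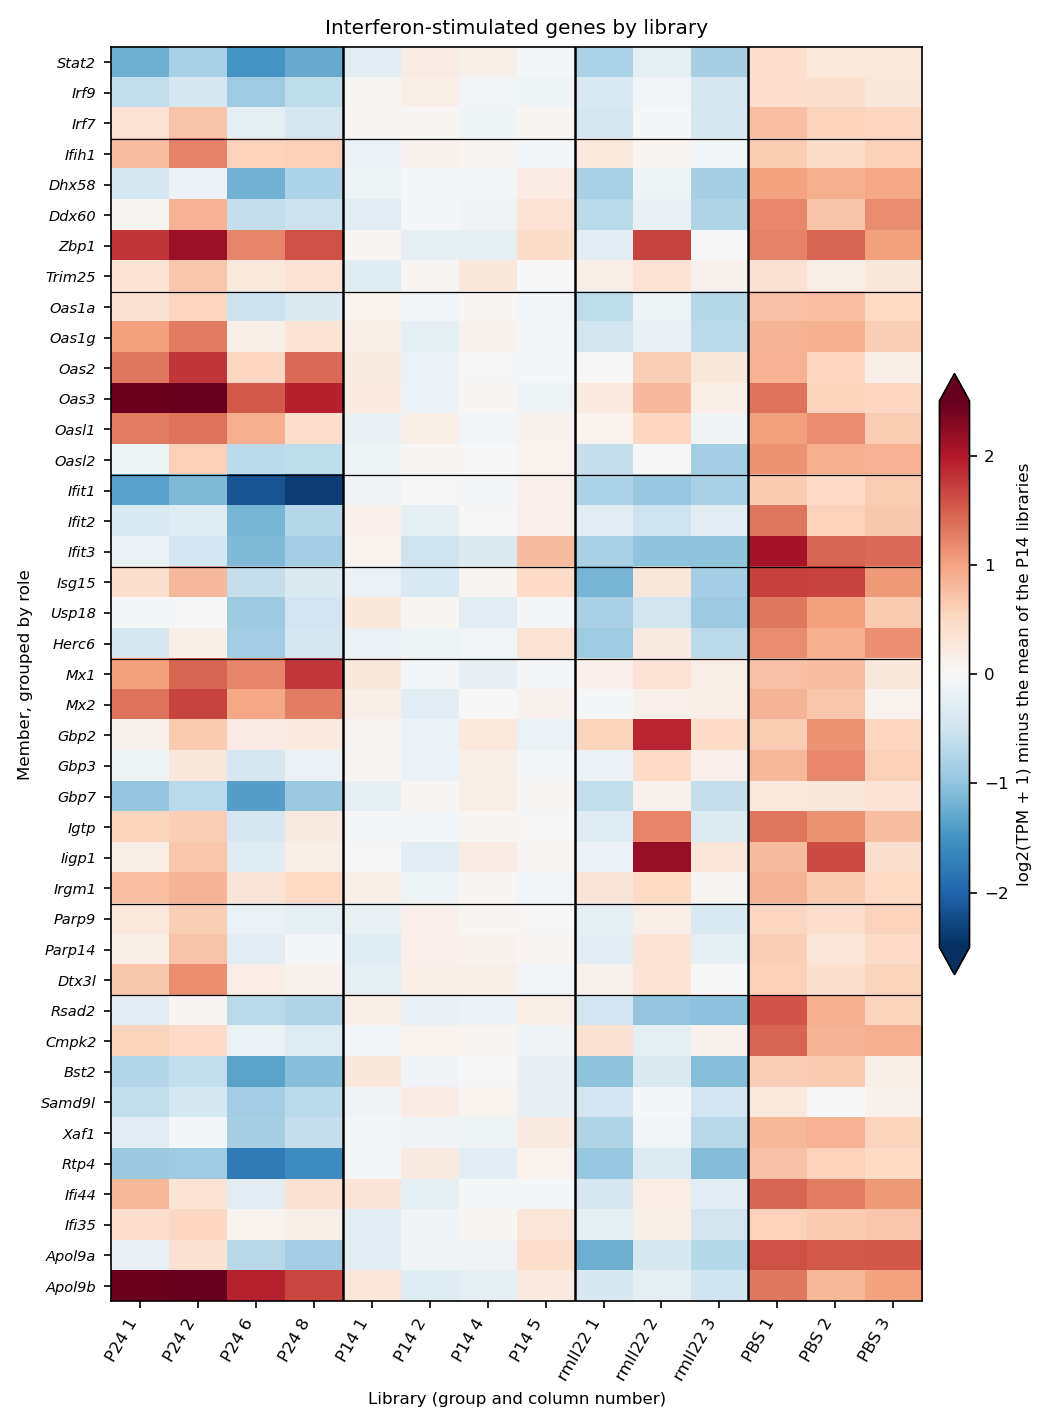
Level of each of the 41 interferon-stimulated genes (rows, grouped by role) in each of 14 libraries (columns: 4 P24, 4 P14, 3 rmIl22, 3 PBS), as log2(TPM + 1) minus the mean of the 4 P14 libraries. PBS libraries were above the P14 mean for nearly every gene, rmIl22 libraries were mostly near or below it, and in P24 libraries some genes (Oas3, Apol9b, Zbp1) were far above it and others (Ifit1, Rtp4, Stat2) far below.

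The comparison of rmIl22 with PBS ileum asks what injected interleukin-22 changes before weaning. In rmIl22 ileum, 21 of the 38 genes tested fell and none rose, against 2.25% of all 14456 tested genes falling and 0.443% rising. At an unadjusted p under 0.05, 32 of the 38 were lower and 0 higher, but all genes were not counted at that cutoff. Limma-voom on the recovered reads called 11 lower and 0 higher. Over all 14456 genes, limma-voom called 232 lower and 80 higher. The test was limma on log2(TPM + 1), two-sided, with p-values adjusted over all genes tested and a threshold of 0.05. Oas2, Mx1 and Mx2 were too low to be tested here. The authors' deposited table of this comparison holds only 1102 entries, with adjusted p up to 0.00999, so absence from it does not mean failing at 0.05. It lists 21 of the 41 genes, all of them lower, and 20 of these are among the 21 called here. Of the 38, 37 had a negative log2 fold change, and their median was -0.96, against -0.05 for all tested genes. For 31 of the 38, every rmIl22 library was below every PBS library, against 15.4% of all tested genes. For 0 every rmIl22 library was above every PBS library, against 5.62% of all tested genes. The number of calls depended on single libraries. It ranged from 0 without PBS library 3 to 31 without rmIl22 library 2, and was 2 without PBS library 1, 6 without PBS library 2, 9 without rmIl22 library 1 and 7 without rmIl22 library 3. Calls over all genes moved as well. Without PBS library 3, 3 of 14879 genes were lower and 1 higher. Without PBS library 1, 13 of 14924 were lower and 1 higher. Without rmIl22 library 2, 841 of 14907 were lower and 483 higher. The member calls also fell to 10 with TPM scaled to equal medians and to 4 with no filter on low genes. In these fits 226 and 79 of all genes were lower. Direction held throughout: the median of the tested members stayed between -0.85 and -1.19 and at most 2 had a positive value in each of the 16 fits.

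The 3 factors that carry the signal were all called lower in rmIl22 ileum by limma, and 0 of the 3 by limma-voom. Stat2, the interferon-specific STAT, had 20.6, 30.5 and 19.9 TPM in rmIl22 ileum, against 48.7, 44.0 and 43.9 TPM in PBS ileum, a log2 fold change of -0.94 (SE 0.17, adjusted p = 0.0381). Irf9, its DNA-binding partner, changed by -0.67 (SE 0.13, adjusted p = 0.0431) and Irf7, the amplifier of interferon alpha production, by -0.93 (SE 0.14, adjusted p = 0.0223). No rmIl22 library overlapped a PBS library for any of the 3. These are among the smaller falls of the list. Each lost its call in 11 of 15 other fits, among them median scaling, the replicate block and leaving out any 1 library but rmIl22 library 2. Over the fits the adjusted p ran from 0.00144 to 0.181 for Stat2, from 0.00551 to 0.188 for Irf9 and from 0.00207 to 0.122 for Irf7.

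The IFIT family, whose proteins bind foreign RNA and block its translation, held the largest fall, that of Ifit3, and 3 of 3 genes were called. Ifit3 had 18.4, 15.9 and 15.9 TPM in rmIl22 ileum, against 142, 91.8 and 90.1 TPM in PBS ileum, a log2 fold change of -2.59 (SE 0.19, adjusted p = 0.00524). The 3 rmIl22 values lay close together and far below the lowest PBS value. Ifit1 had 116, 102 and 112 TPM in rmIl22 ileum, against 312, 274 and 307 TPM in PBS ileum, a change of -1.43 (SE 0.11, adjusted p = 0.00596). Ifit2 changed by -1.22 (SE 0.21, adjusted p = 0.031). The 3 genes lie in 1 cluster, with Ifit2 at chr19:34550694-34576419, Ifit3 at chr19:34583531-34588731 and Ifit1 at chr19:34640871-34650009 (mm10, plus strand). In sequence, 51.2% of the 50-base windows of the Ifit3 transcript are also found in Ifit3b. Reads lying within these windows cannot be told apart by sequence, and the level of either gene may be affected. Ifit3 and Ifit1 each kept their call in every fit but the one without PBS library 3, where the adjusted p values were 0.0562 for Ifit3 and 0.0841 for Ifit1. Over all 16 fits the adjusted p ran from 0.000215 to 0.0562 for Ifit3 and from 0.000787 to 0.0841 for Ifit1. Ifit2 lost its call in 10 of 15 other fits (0.00451 to 0.168), including limma-voom and leaving out any 1 library but rmIl22 library 2.

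All 3 genes of the ISG15 system were called lower as well by limma, but 1 of 3 by limma-voom. Isg15, a small protein attached to others like ubiquitin, had 17.7, 50.0 and 22.2 TPM in rmIl22 ileum, against 136, 134 and 85.8 TPM in PBS ileum. The log2 fold change of Isg15 came to -2.06 (SE 0.37, adjusted p = 0.0377), and rmIl22 library 2 was the highest of its group. Usp18, which removes ISG15 and restrains the interferon receptor, had 4.80, 6.34 and 4.35 TPM in rmIl22 ileum, against 24.2, 19.5 and 15.0 TPM in PBS ileum, a change of -1.73 (SE 0.20, adjusted p = 0.0125). Herc6, the mouse ligase that attaches ISG15, had 1.14, 3.604 and 1.46 TPM in rmIl22 ileum, against 7.98, 6.28 and 7.69 TPM in PBS ileum, with a change of -1.52 (SE 0.28, adjusted p = 0.0416). Isg15 lost its call in 10 of 15 other fits (adjusted p 0.000876 to 0.156) and Herc6 in 12 (0.000823 to 0.221), both with median scaling and without any 1 library but rmIl22 library 2. Usp18 lost it in 3, without PBS library 1 or 3 and with the Xist term (0.00064 to 0.0841).

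Among the sensors of nucleic acids, 2 of 5 fell, by limma and by limma-voom. Dhx58, a helicase that tunes RNA sensing, had 4.26, 7.54 and 4.22 TPM in rmIl22 ileum, against 17.7, 16.2 and 17.1 TPM in PBS ileum, a log2 fold change of -1.54 (SE 0.20, adjusted p = 0.0165). Ddx60, a helicase of the same pathway, had 15.1, 21.5 and 14.3 TPM in rmIl22 ileum, against 58.6, 41.4 and 57.7 TPM in PBS ileum, with a change of -1.58 (SE 0.20, adjusted p = 0.0148). Without PBS library 1 or 3 both lost the call, and Dhx58 also without PBS library 2 or rmIl22 library 3, with adjusted p up to 0.121 for Dhx58 and 0.113 for Ddx60 over the 16 fits. Zbp1, a sensor of left-handed nucleic acid that can trigger cell death, had 2.08, 11.03 and 2.77 TPM in rmIl22 ileum, against 7.82, 9.16 and 6.61 TPM in PBS ileum. The single high rmIl22 value lay in library 2 and the groups overlapped, and Zbp1 was not called (log2 fold change -0.76, SE 0.47, adjusted p = 0.548). Ifih1, the RNA sensor MDA5, had a value of -0.48 (SE 0.12, adjusted p = 0.0975), and Trim25, a ligase that activates RIG-I, -0.06 (SE 0.11, adjusted p = 0.882).

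Of the OAS family, enzymes that sense double-stranded RNA and activate the nuclease RNase L, or relatives of them, 3 of 5 tested genes fell by limma and 1 by limma-voom. Oas1a changed by -1.14 (SE 0.18, adjusted p = 0.0234) and Oas1g by -1.22 (SE 0.16, adjusted p = 0.0151). However, 57.6% of the 50-base windows of the Oas1a transcript and 54.7% of those of Oas1g occur in other genes too. Reads lying within these windows cannot be told apart by sequence, and both levels may be affected. Oasl2 had 15.5, 23.3 and 12.3 TPM in rmIl22 ileum, against 52.6, 45.1 and 43.7 TPM in PBS ileum, a log2 fold change of -1.45 (SE 0.22, adjusted p = 0.0214). Oasl1 (-0.77, SE 0.20, adjusted p = 0.11) and Oas3 (-0.40, SE 0.29, adjusted p = 0.62) were not called. Oas1a and Oasl2 each lost the call in 10 of 15 other fits, including any 1 library but rmIl22 library 2 left out, and Oas1g in 5, including each PBS library left out.

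The other restriction factors held 7 of the 21 falls, of which limma-voom called 5. Apol9a, an apolipoprotein L gene of mice, had 13.5, 24.7 and 19.7 TPM in rmIl22 ileum, against 102, 97.4 and 99.3 TPM in PBS ileum, a log2 fold change of -2.35 (SE 0.20, adjusted p = 0.00769). The PBS values lay within a narrow band, and the highest rmIl22 value was far below it. Its near copy Apol9b, at lower level, had 1.33, 1.61 and 1.18 TPM in rmIl22 ileum, against 6.65, 4.47 and 5.12 TPM in PBS ileum, a change of -1.42 (SE 0.17, adjusted p = 0.0126). Rsad2, or viperin, an enzyme that makes a chain-ending nucleotide, had 10.7, 7.29 and 7.14 TPM in rmIl22 ileum, against 47.6, 29.9 and 23.3 TPM in PBS ileum, with a change of -1.84 (SE 0.27, adjusted p = 0.0204). Ifi44 had 0.642, 1.48 and 0.797 TPM in rmIl22 ileum, against 5.01, 4.28 and 3.59 TPM in PBS ileum, a change of -1.44 (SE 0.20, adjusted p = 0.0189). Groups did not overlap for any of the 4. All 4 lost the call without PBS library 1 or 3, Rsad2 and Ifi44 also without PBS library 2 or rmIl22 library 3, and Ifi44 without rmIl22 library 1. Their highest adjusted p over the fits was 0.0844 for Apol9a, 0.0930 for Apol9b, 0.111 for Rsad2 and 0.107 for Ifi44. Bst2 (tetherin, which holds budding viruses at the cell surface), Xaf1 and Rtp4 changed by -1.28, -1.26 and -1.39. Bst2 and Xaf1 each lost the call in 10 of 15 other fits and Rtp4 in 9, all 3 with median scaling and without any 1 library but rmIl22 library 2. Cmpk2, the partner of Rsad2 on chromosome 12, missed the threshold with -0.98 (SE 0.22, adjusted p = 0.0672), as did Ifi35 with -0.83 (SE 0.16, adjusted p = 0.0502) and Samd9l with -0.46 (SE 0.15, adjusted p = 0.195).

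None of the 6 tested GTPases and none of the 3 genes of the PARP9, PARP14 and DTX3L group passed the test in rmIl22 ileum, by limma or by limma-voom. At an unadjusted p under 0.05, 3 of the 6 and 3 of the 3 were lower. The GTPases are induced by interferon gamma as well as by type I interferon, and attack vacuoles that hold microbes. Gbp2 had 18.6, 48.7 and 17.5 TPM in rmIl22 ileum, against 19.6, 28.0 and 18.1 TPM in PBS ileum, the only positive value of the list (0.22, SE 0.38, adjusted p = 0.871). Iigp1 had 5.88, 33.5 and 8.41 TPM in rmIl22 ileum, against 12.2, 22.6 and 9.04 TPM in PBS ileum, a value of -0.16 (SE 0.60, adjusted p = 0.949). In both, rmIl22 library 2 was above every PBS library, and the other 2 rmIl22 libraries were below the PBS range, except for 1 Gbp2 value inside it. Gbp3, Gbp7 and Irgm1 did not overlap between groups (log2 fold changes -0.72, -0.67 and -0.37), and Igtp had -0.89 (SE 0.41, adjusted p = 0.375). Parp9, Parp14 and Dtx3l, which modify proteins with ADP-ribose and ubiquitin, had -0.66, -0.53 and -0.37. Whether the GTPases differ from the other genes in this comparison was not tested.

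Several measures moved with this comparison. Markers of macrophages and dendritic cells summed to 231 to 292 TPM in rmIl22 ileum and to 286 to 357 TPM in PBS ileum, with 1 of 9 tested markers called lower (Csf1r, -1.16, SE 0.15, adjusted p = 0.0151) and none of the 12 at 0 reads. Markers of B and plasma cells summed to 8.80 to 91.7 TPM in rmIl22 and 39.7 to 161 TPM in PBS ileum, with none of 9 called by limma or limma-voom and 1 lower at an unadjusted p under 0.05. Markers of the epithelium summed to 5472 to 8432 TPM in rmIl22 and 5861 to 7014 TPM in PBS ileum, with none of 7 called by either and 1 higher unadjusted. Plasmacytoid dendritic cell markers summed to 165 to 217 TPM in rmIl22 and 73.8 to 81.8 TPM in PBS ileum, of which Klk1 made up 29.1 to 210.2 TPM in rmIl22 and 50.9 to 56.1 TPM in PBS ileum, with their defining marker Siglech at 0.324 to 1.503 TPM in rmIl22 and 1.15 to 1.90 TPM in PBS ileum. T, NK and innate lymphoid markers summed to 89.7 to 144 TPM in rmIl22 and 125 to 156 TPM in PBS ileum, ileal enterocyte markers to 4334 to 13588 TPM in rmIl22 and 3895 to 5783 TPM in PBS ileum, fibroblast markers to 463 to 991 TPM in rmIl22 and 722 to 983 TPM in PBS ileum, and endothelial markers to 56.3 to 61.3 TPM in rmIl22 and 49.8 to 67.3 TPM in PBS ileum. The part of these differences in the result was not tested. With the Xist class as a term, a fit chosen after seeing the data, 4 members were called lower and none higher. Taken 1 library at a time, 39 of 41 genes were below the lowest PBS value in rmIl22 library 1, 31 in library 2 and 39 in library 3. The share of all genes that did so was not counted, so these counts have no background. The part of sex in the result was not tested.

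**Figure D2:**
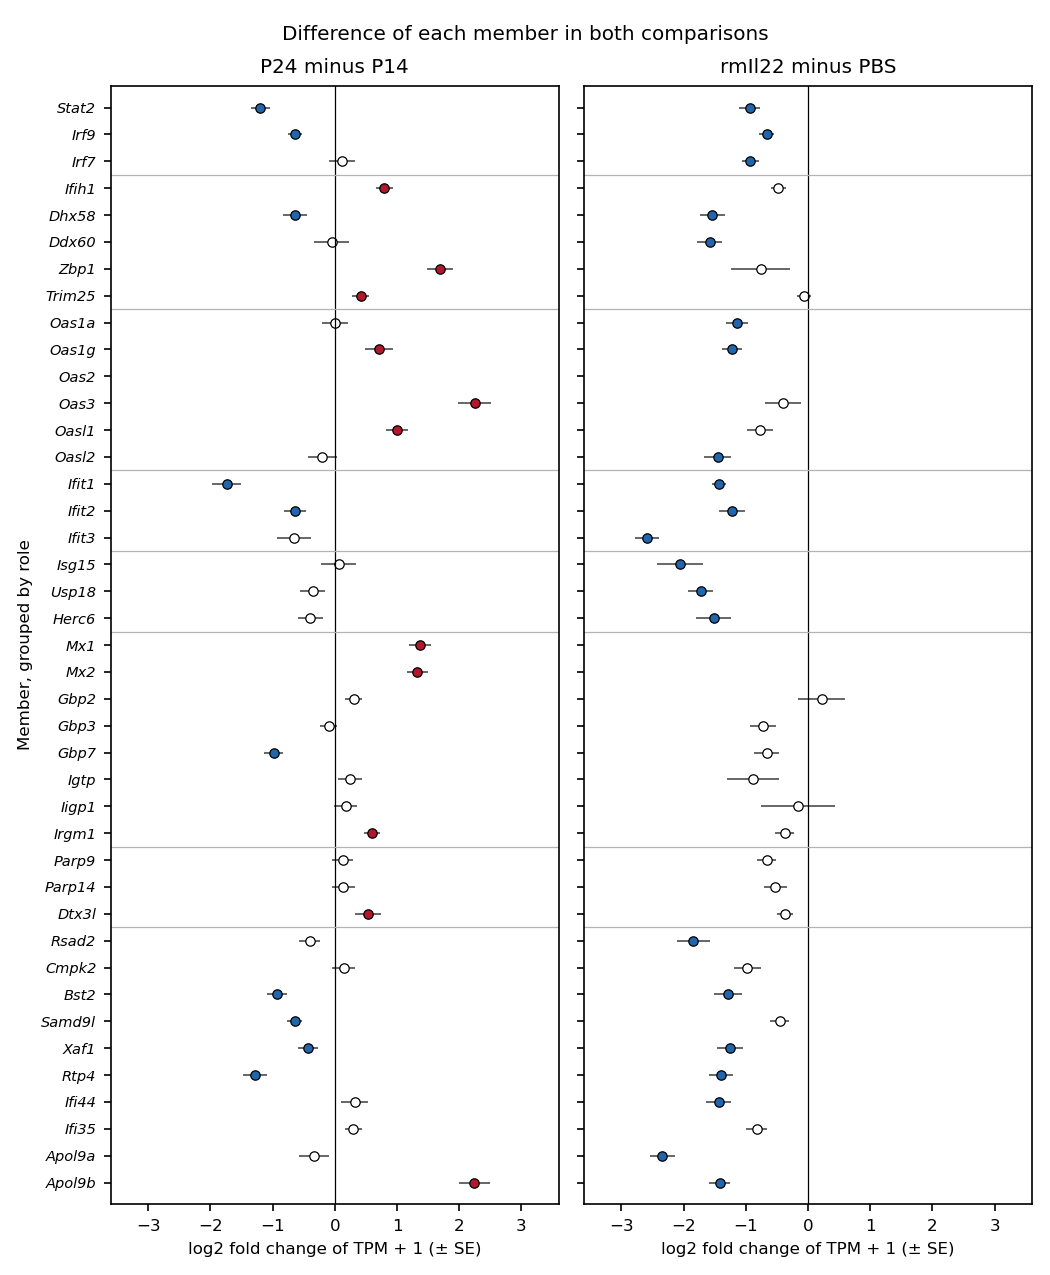
Log2 fold change of TPM + 1 with its standard error for each gene, P24 minus P14 on the left (4 against 4 libraries) and rmIl22 minus PBS on the right (3 against 3); filled circles passed an adjusted p of 0.05 (red higher, blue lower), open circles did not, and genes too low to test have no point. With age 11 genes were higher and 10 lower, while with rmIl22 21 were lower and none higher.

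The comparison of P24 with P14 ileum asks what differs across weaning, and here the list split. Of 40 genes tested, 11 rose in P24 ileum (14.6% of all 14651 tested genes rose) and 10 fell (43.7% fell). Oas2 was too low for this filter. The median log2 fold change of the 40 was 0.09, against -0.25 for all tested genes. In 8 genes every P24 library was above every P14 library (13.0% of all genes tested), and in 9 every one was below (39.4%). The counts depend on scale. With TPM scaled to equal medians, 14 of the genes were higher and 7 lower, against 29.5% and 28.3% of all genes, and the median of the list was 0.39, against 0.02 for all genes. The falls of Dhx58, Ifit2 and Xaf1 were lost with that scale. The authors' deposited table of this comparison lists 16 of the 41 genes as higher and 5 as lower at an adjusted p under 0.05, with the same sign as here for 36 of the 40 genes tested.

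Of the 11 genes that rose, 8 were OAS genes (3), Mx genes (2) or sensors (3). Oas3 had 7.16, 11.3, 3.33 and 4.73 TPM in P24 ileum, against 0.754, 0.335, 0.537 and 0.358 TPM in P14 ileum, a log2 fold change of 2.25 (SE 0.27, adjusted p = 2.62e-05). Every P24 value was several times the highest P14 value. Zbp1 had 11.8, 15.7, 7.65 and 10.2 TPM in P24 ileum, against 2.84, 2.13, 2.12 and 4.11 TPM in P14 ileum, a change of 1.69 (SE 0.21, adjusted p = 3.70e-05). Apol9b had 15.7, 22.2, 10.7 and 8.72 TPM in P24 ileum, against 2.79, 1.48, 1.58 and 2.64 TPM in P14 ileum, a change of 2.24 (SE 0.25, adjusted p = 1.67e-05). Its near copy Apol9a had 29.1, 43.3, 20.0 and 17.8 TPM in P24 ileum, against 27.3, 31.0, 31.1 and 45.0 TPM in P14 ileum, and was not called (log2 fold change -0.34, SE 0.24, adjusted p = 0.253), though without P24 library 2 it passed as lower (0.0255 to 0.921 over the fits). The 2 transcripts share 57.5% of the 50-base windows of Apol9a and 51.4% of those of Apol9b. Reads lying within these windows cannot be told apart by sequence, and both levels may be affected.

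Oasl1 had 77.0, 81.4, 59.0 and 42.4 TPM in P24 ileum, against 27.1, 34.7, 29.5 and 33.3 TPM in P14 ileum, a log2 fold change of 1.00 (SE 0.18, adjusted p = 0.000633), with no overlap. Oas1g had 23.6, 28.9, 12.4 and 14.4 TPM in P24 ileum, against 12.5, 9.31, 12.1 and 10.8 TPM in P14 ileum, a change of 0.71 (SE 0.22, adjusted p = 0.018), and its groups overlapped at 1 value. That call was lost without P14 library 2, without P24 library 1 and with no filter on low genes, with adjusted p values from 0.00391 to 0.0625 over the fits. Oas1a, in the same cluster on chromosome 5, had a mean of 50.8 ± 18.5 TPM in P24 and 48.3 ± 2.80 TPM in P14 ileum (SD, n = 4 each), with a change of 0.00 (SE 0.21, adjusted p = 0.992). Oas2 was listed at 2.16, 3.33, 0.811 and 2.39 TPM in P24 and 0.475, 0.131, 0.252 and 0.220 TPM in P14 ileum, also without overlap but with no test. Oasl2 was not called (-0.20, SE 0.23, adjusted p = 0.474).

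Mx1 and Mx2, genes of the dynamin-like GTPase family, were near the lower limit in P14 ileum. Mx1 had 1.79, 2.73, 2.19 and 3.67 TPM in P24 ileum, against 0.673, 0.319, 0.187 and 0.347 TPM in P14 ileum, a log2 fold change of 1.36 (SE 0.18, adjusted p = 5.73e-05). Mx2, annotated as a polymorphic pseudogene, had 3.21, 4.29, 2.19 and 2.98 TPM in P24 ileum, against 0.843, 0.346, 0.660 and 0.756 TPM in P14 ileum, a change of 1.32 (SE 0.17, adjusted p = 4.92e-05). Both rose without overlap, and the low level means that these log2 values understate the change. Ifih1 had 27.6, 38.8, 24.0 and 24.5 TPM in P24 ileum, against 14.2, 17.0, 16.6 and 15.6 TPM in P14 ileum, a change of 0.80 (SE 0.14, adjusted p = 0.000605). Irgm1, a regulator of the other GTPases of its family, had 13.9, 14.9, 9.99 and 11.6 TPM in P24 ileum, against 8.76, 7.10, 8.12 and 7.49 TPM in P14 ileum, a change of 0.60 (SE 0.13, adjusted p = 0.00193).

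Dtx3l had 57.7, 81.3, 40.97 and 38.3 TPM in P24 ileum, against 30.4, 39.8, 39.8 and 33.8 TPM in P14 ileum, a log2 fold change of 0.53 (SE 0.20, adjusted p = 0.0418), with 1 P24 value inside the P14 range. That call was lost in 8 of 16 other fits, namely without P14 library 1, 2, 4 or 5, without P24 library 1 or 2, with no filter and with the Xist term (adjusted p 0.00589 to 0.113). Trim25 changed by 0.42 (SE 0.14, adjusted p = 0.0206), and lost its call without P14 library 1, without P24 library 2 and with no filter (0.000485 to 0.0637). Parp9 and Parp14 had 0.13 and 0.14 and were not called. Parp9 (chr16:35938470-35972605, plus strand) and Dtx3l (chr16:35926511-35939151, minus strand) overlap in a short stretch at their starts. Reads in that stretch can be told apart only if strand was used in counting, which the sources used here do not state.

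The 10 genes that fell with age were led by Ifit1, Rtp4 and Stat2. Ifit1 had 77.1, 92.2, 43.9 and 37.8 TPM in P24 ileum, against 186, 196, 195 and 216 TPM in P14 ileum, a log2 fold change of -1.74 (SE 0.24, adjusted p = 7.84e-05). It was the most abundant gene of the list at P14, and every P24 value was far below the lowest P14 value. Rtp4, which blocks viral replication in mice, had 32.1, 33.1, 17.7 and 20.3 TPM in P24 ileum, against 61.0, 72.9, 51.0 and 66.1 TPM in P14 ileum, a change of -1.29 (SE 0.19, adjusted p = 0.000167). Stat2 had 15.0, 20.2, 12.3 and 14.6 TPM in P24 ileum, against 29.6, 41.8, 40.3 and 34.9 TPM in P14 ileum, a change of -1.20 (SE 0.15, adjusted p = 4.24e-05). Gbp7 had 6.90, 8.73, 4.94 and 7.16 TPM in P24 ileum, against 12.1, 15.0, 16.1 and 14.8 TPM in P14 ileum, a change of -0.98 (SE 0.15, adjusted p = 0.00018). In all 4 the groups were apart.

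Bst2 had 49.0, 53.0, 31.6 and 38.7 TPM in P24 ileum, against 100.0, 76.4, 82.5 and 70.7 TPM in P14 ileum, a log2 fold change of -0.94 (SE 0.16, adjusted p = 0.000459). Samd9l, which restrains translation in infected cells, had 59.8, 67.0, 50.0 and 57.5 TPM in P24 ileum, against 86.2, 106, 97.4 and 79.4 TPM in P14 ileum, a change of -0.65 (SE 0.12, adjusted p = 0.000697). Irf9 had 16.4, 18.7, 13.2 and 16.0 TPM in P24 ileum, against 26.0, 28.7, 24.1 and 23.4 TPM in P14 ileum, a change of -0.64 (SE 0.12, adjusted p = 0.000619). These 3 also did not overlap. Dhx58 (-0.64, SE 0.19, adjusted p = 0.014), Ifit2 (-0.64, SE 0.17, adjusted p = 0.00873) and Xaf1 (-0.43, SE 0.16, adjusted p = 0.0397) fell less. Dhx58 and Ifit2 kept their calls with each library left out. Xaf1 lost its call without any 1 of the P14 libraries and without P24 library 6 or 8, with adjusted p values from 0.0113 to 0.474 over the fits. Ifit3 missed the threshold (-0.65, SE 0.27, adjusted p = 0.0553), as did Rsad2 (-0.41, SE 0.17, adjusted p = 0.0614). The Ifit3 fall passed without P14 library 2, without P24 library 1, in the fit of all libraries and with a filter of 5 TPM (0.0258 to 0.39). The other 17 genes not called ran from -0.40 for Herc6 to 0.32 for Ifi44. Irf7, Ddx60, Usp18, Cmpk2, Ifi35, Gbp2, Gbp3, Igtp and Iigp1 were among them.

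By role the counts with age are small, and those by limma are set against 14.6% of all tested genes that rose and 43.7% that fell. The OAS family had 3 rises and no fall among 5 tested, the IFIT family no rise and 2 falls among 3, the sensors 3 rises (Ifih1, Zbp1, Trim25) and 1 fall (Dhx58) among 5, and the GTPases 3 rises and 1 fall among 8. By limma-voom, the OAS family had 3 rises and 0 falls, the IFIT family 0 rises and 1 fall, the sensors 3 rises and 0 falls and the GTPases 4 rises and 1 fall. Over all 14651 genes, limma-voom called 3913 higher and 4629 lower. The ISG15 system had 0 calls among 3 by limma, by limma-voom and at an unadjusted p under 0.05. Isg15 itself had 53.9, 72.5, 26.4 and 31.6 TPM in P24 ileum, against 36.2, 31.1, 42.7 and 57.2 TPM in P14 ileum, with wide overlap and a log2 fold change of 0.06 (SE 0.28, adjusted p = 0.861). Of the 21 calls, 15 held in each of the 17 fits tried. Leaving out 1 library moved the rises between 9 and 14 and the falls between 9 and 14.

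The P24 libraries differed among themselves in nearly the whole list at once. Library 2 was the highest of its group for 37 of the 41 genes and above the group mean for all 41, while library 6 was above it for none. The median gene stood 0.60 above the P14 mean on the log2 scale in P24 library 2, 0.17 in library 1, -0.32 in library 8 and -0.42 in library 6. The P14 libraries lay between -0.06 and 0.04. The marker sums of macrophages and dendritic cells were 204 TPM in P24 library 2 and 164 TPM in library 6, and 164 to 223 TPM over P24 against 216 to 267 TPM over P14 ileum. Of 9 tested markers 3 were called lower (Csf1r, Cd68 and Cx3cr1), but 4 had a positive log2 fold change and the median was -0.09. By limma-voom 2 were higher and 3 lower. Csf1r alone had 12.8 to 17.3 TPM in P24 and 52.1 to 66.0 TPM in P14 ileum. T, NK and innate lymphoid markers summed to 47.8 to 81.6 TPM in P24 and 120 to 128 TPM in P14 ileum, though 3 of 9 tested were called higher and 1 lower. Fibroblast markers summed to 419 to 554 TPM in P24 and 686 to 1329 TPM in P14 ileum, endothelial markers to 34.02 to 42.4 TPM in P24 and 56.1 to 86.1 TPM in P14 ileum, and epithelial markers to 8829 to 11305 TPM in P24 and 4911 to 6244 TPM in P14 ileum. Ileal enterocyte markers summed to 24529 to 33292 TPM in P24 and 1471 to 2981 TPM in P14 ileum, B and plasma cell markers to 73.02 to 471 TPM in P24 and 12.0 to 80.1 TPM in P14 ileum, and granulocyte and mast cell markers to 22.4 to 34.3 TPM in P24 and 15.03 to 43.9 TPM in P14 ileum. Plasmacytoid dendritic cell markers summed to 179 to 246 TPM in P24 and 46.9 to 76.8 TPM in P14 ileum, most of it Klk1, at 168 to 195 TPM in P24 and 39.3 to 59.3 TPM in P14 ileum. Their defining marker Siglech went the other way, with 1.17, 0.761, 0.312 and 1.03 TPM in P24 ileum, against 2.31, 2.15, 2.19 and 1.52 TPM in P14 ileum (-0.76, SE 0.17, adjusted p = 0.00301). The part of these cells in the result was not tested.

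**Figure D3:**
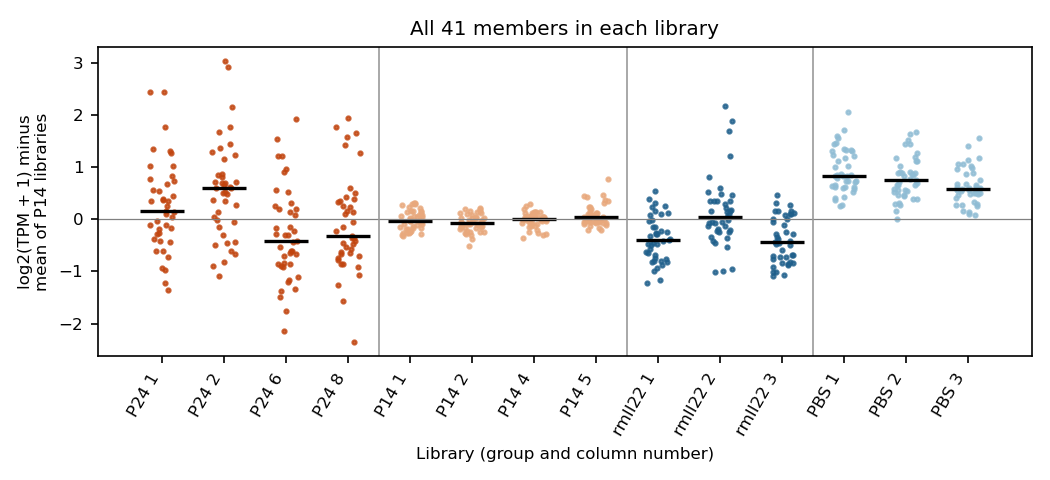
Each point is 1 of the 41 genes in 1 library, as log2(TPM + 1) minus the mean of the P14 libraries; black bars mark the median of the 41. The P14 medians lie between -0.06 and 0.04, the P24 medians between -0.42 and 0.60, the rmIl22 medians between -0.44 and 0.04 and the PBS medians between 0.58 and 0.84.

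Whether age and rmIl22 moved a gene differently was tested as the difference between both log2 fold changes in 1 fit of all 14 libraries. The 2 comparisons share no library. For 27 of 41 genes the rmIl22 effect was lower than the age effect and for none higher, against 6.51% lower and 17.3% higher among all 15702 tested genes. At an unadjusted p under 0.05, 31 were lower and 0 higher, a cutoff at which all genes were not counted. Of the 27 calls, 18 held in each of the 18 fits tried, and with 1 library left out 19 to 30 genes were called. The widest differences were those of Apol9b (-3.66, SE 0.36, adjusted p = 1.25e-05), Oas3 (-2.64, SE 0.44, adjusted p = 0.000914) and Zbp1 (-2.45, SE 0.53, adjusted p = 0.00503). Oas1g and Apol9b were the 2 genes that rose with age and fell with rmIl22. In both comparisons 8 genes fell (Stat2, Irf9, Dhx58, Ifit1, Ifit2, Bst2, Xaf1 and Rtp4), and for 6 of these the difference was not called (Stat2, Irf9, Ifit1, Ifit2, Bst2 and Rtp4). For Ifit1 it was 0.31 (SE 0.33, adjusted p = 0.52) and for Stat2 0.26 (SE 0.24, adjusted p = 0.463).

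**Figure D4:**
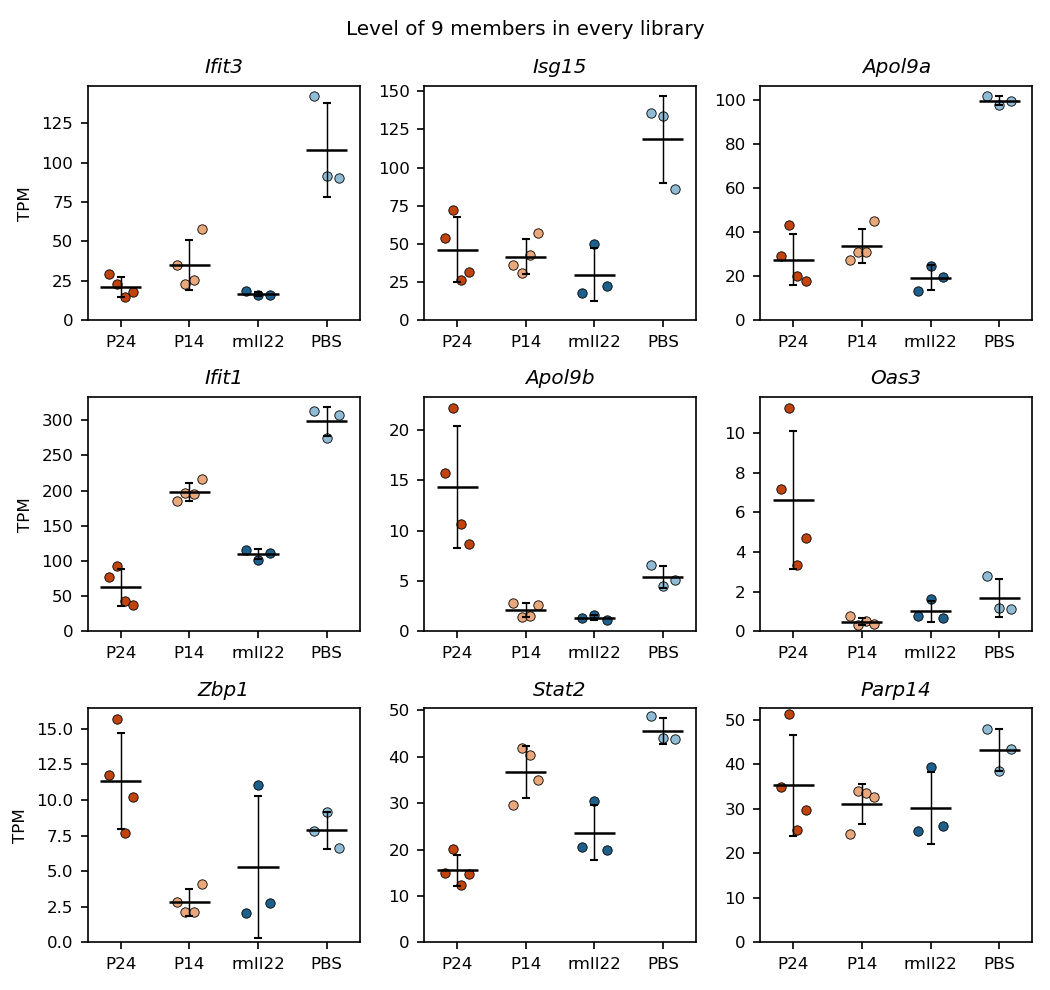
Level in TPM of 9 genes in every library, with the group mean (horizontal line) and SD (bar) for 4 P24, 4 P14, 3 rmIl22 and 3 PBS libraries; axes start at 0. Ifit3, Isg15 and Apol9a have their highest mean in PBS ileum, Apol9b and Oas3 are highest in P24, and Ifit1 and Stat2 are lower in P24 than in P14 and lower in rmIl22 than in PBS.

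PBS ileum was the high group, so it was also set beside untreated P14 ileum, a comparison chosen after seeing the data. All 41 genes had a higher fitted value in PBS ileum, of which 13 passed the test as higher (1.84% of all 15702 tested genes) and 0 as lower (0.541%). At an unadjusted p under 0.05, 36 were higher and 0 lower, a cutoff at which all genes were not counted. In 35 of 41 the groups did not overlap, against 8.95% of all genes tested. The PBS mice had been injected and were killed on day 16, not 14. Injection, age and any batch between the groups cannot be told apart. Ifit3 averaged 108 ± 29.6 TPM in PBS ileum (SD, n = 3) and 35.3 ± 15.8 TPM in P14 ileum (SD, n = 4), a log2 fold change of 1.65 (SE 0.28, adjusted p = 0.008). Apol9a averaged 99.5 ± 2.15 TPM (SD, n = 3) in PBS and 33.6 ± 7.82 TPM (SD, n = 4) in P14 ileum, a change of 1.56 (SE 0.26, adjusted p = 0.0071). The PBS libraries also serve in the rmIl22 comparison, so the 2 results are not independent.

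Set beside P14 ileum in the same way, rmIl22 ileum had 1 member higher (4.54% of all tested genes were) and 7 lower (7.15% were). The 1 that was higher was Gbp2, which had 18.6, 48.7 and 17.5 TPM in rmIl22 ileum, against 12.9, 11.04, 15.0 and 10.9 TPM in P14 ileum (0.97, SE 0.28, adjusted p = 0.0393). The median log2 fold change of the 41 was -0.31. Here too injection, age and rmIl22 itself cannot be told apart.

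Pooled over the groups, members tended to rise and fall together from library to library, but the groups differed. In P24 ileum all 41 were above the group mean in library 2 and 0 in library 6. In rmIl22 ileum 35 were above it in library 2 and 5 in library 3. In PBS libraries 11 to 36 were above it, and in P14 libraries 15 to 23. Over deviations of the 14 libraries from their group means, the median Pearson correlation between 2 members was 0.61 and 97.2% of the 820 pairs were positive. The median with the 15661 other genes tested was -0.11. This is a description, with the libraries' depth and cell makeup shared by all genes. The closest pair was Oas1a and Oas1g (r = 0.97), which share sequence, followed by Isg15 and Xaf1 (0.96) and by Parp9 and Dtx3l (0.96). Mx1 followed the rest least, with a median of 0.086.

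Upstream of the list, the interferons themselves were scarcely read. Of 21 interferon genes, 15 had 0 reads in every library, Ifnb1 among them, which allows up to 3 reads per library by counting error alone. Ifng had 1 to 6 reads in P24, 0 to 2 in P14, 0 to 2 in rmIl22 and 0 to 2 in PBS libraries. None of the 21 was high enough to be tested. Of 6 receptor chains, 1 rose with age and 4 fell by limma and by limma-voom, where 14.6% of all genes tested by limma rose and 43.7% fell. Ifngr1, a chain of the interferon gamma receptor, had 191, 191, 191 and 181 TPM in P24 ileum, against 109.8, 121, 131 and 111 TPM in P14 ileum (0.67, SE 0.09, adjusted p = 6.29e-05). Ifnlr1, the private chain of the interferon lambda receptor, had 7.47, 9.75, 7.85 and 7.50 TPM in P24 ileum, against 14.7, 20.9, 19.2 and 15.1 TPM in P14 ileum (-1.01, SE 0.13, adjusted p = 6.38e-05), and Ifnar1 changed by -0.88 (SE 0.11, adjusted p = 3.07e-05). No receptor chain passed the test with rmIl22 by limma or limma-voom (4 of 6 were lower at an unadjusted p under 0.05), where Ifnlr1 had -0.46 (SE 0.11, adjusted p = 0.0814).

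The counts of the next 3 lists with age stand beside 14.6% of all tested genes that rose and 43.7% that fell by limma. Limma-voom called 3913 of all 14651 higher and 4629 lower. With rmIl22, 0.443% of all tested genes rose and 2.25% fell by limma. Of 9 kinases and factors, 3 rose and 1 fell with age by limma, and 5 rose and 0 fell by limma-voom. The largest rise by limma was in Jak2 (0.86, SE 0.12, adjusted p = 8.13e-05). With rmIl22 0 of the 9 were called by limma or limma-voom, and 2 were lower at an unadjusted p under 0.05. Of the sensors and adaptors that lead to interferon, 2 rose and 2 fell among 9 tested with age by limma, and 5 rose and 2 fell by limma-voom. Tlr3, a sensor of double-stranded RNA, had the largest rise (1.95, SE 0.13, adjusted p = 2.90e-07) and Ddx58, the RNA sensor RIG-I, the largest fall (-0.74, SE 0.15, adjusted p = 0.00134). Ddx58 was also the 1 of 10 that fell with rmIl22 (-0.82, SE 0.14, adjusted p = 0.032). Of 6 inhibitors, 2 rose and 2 fell with age by limma, and 3 rose and 1 fell by limma-voom, with the largest rise in Socs3 (1.91, SE 0.27, adjusted p = 9.74e-05), and 0 were called with rmIl22 by either tool, with 1 higher at an unadjusted p under 0.05.

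Another list of 45 other interferon-stimulated genes gave 9 rises and 10 falls among 38 tested with age by limma, beside the 14.6% and 43.7% of all genes. By limma-voom it gave 14 rises and 9 falls, beside 3913 rises and 4629 falls among all 14651 genes. With rmIl22 it gave 0 rises and 9 falls among 41 by limma, 0 and 4 by limma-voom, and 0 and 18 at an unadjusted p under 0.05, led by Ifit3b (-1.85, SE 0.25, adjusted p = 0.0171). With age the widest were Ifit1bl1, which had 183, 221, 106 and 101 TPM in P24 ileum, against 14.4, 11.8, 12.8 and 15.8 TPM in P14 ileum (3.32, SE 0.23, adjusted p = 2.61e-07), and Ifit1bl2, which had 89.0, 119, 70.7 and 98.9 TPM in P24 ileum, against 248, 285, 279 and 284 TPM in P14 ileum (-1.55, SE 0.14, adjusted p = 2.92e-06). These 2 relatives of Ifit1 lie beyond the 41 and moved in opposite directions. Of 25 genes mostly induced by interferon gamma (GTPases, class I antigen presentation and the immunoproteasome), 8 rose and 1 fell among 20 tested with age by limma. By limma-voom 14 rose and 1 fell. Each is to be set against the calls of the same tool over all genes. None of 22 passed the test with rmIl22 by limma or limma-voom, with 7 lower at an unadjusted p under 0.05. The largest rise with age was Ido1 (1.99, SE 0.12, adjusted p = 1.28e-07) and the fall was Ifi47 (-1.29, SE 0.17, adjusted p = 7.45e-05).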

How the data were processed

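Stranded, ribosome-depleted total RNA-seq of whole ileum gave 1 library per mouse, 14 in all. The authors deposited 1 table of TPM, with decimal commas, and 2 tables of their own comparisons with log2 fold changes and adjusted p-values; these values are named in the text as the authors' deposited table. Per the submitters' processing notes, the tools were STAR 2.4.0f, HTSeq 0.6.1p1, FastQC 0.11.2 and DESeq2 1.14 with build mm10. No source used here gives the strand setting or the gene annotation. Of 46882 entries, 27 whose symbols had become dates, at most 0.078% of TPM per library, were left out. Since HTSeq counts whole reads, read numbers were recovered from the TPM steps of each gene to within 0.01 of a whole number, for 31216 of 31216 genes with any value. The smallest whole numbers that fit were taken, and a gene seen in 1 library was given 1 read. Finding a fit for each gene is thus no check of the numbers, which may be too low. Library numbers of P14 and P24 are those of the table's columns, not of the labels' replicates.

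Values were analysed as log2(TPM + 1), so fold changes of low genes are understated. Genes with at least 1 TPM in 4 libraries (P24 against P14) or 3 libraries (other comparisons) were tested in R 4.3.3 with limma 3.58.1 (variance trend on mean level) and Benjamini-Hochberg adjustment over all genes tested. The P24 and P14 libraries, and the rmIl22 and PBS libraries, were fitted apart, and the difference of effects, PBS against P14 and rmIl22 against P14 in 1 fit of all 14. Nothing in the labels says whether mice shared a litter, and with 3 or 4 mice a group p-values measure the spread between these mice only. The members and gene lists were chosen with earlier results of these data known. Counts at an unadjusted p under 0.05 were made for the lists only, so no share of all genes stands beside them. PBS against P14, rmIl22 against P14 and the Xist term (above or below 5 TPM) were chosen after seeing the data. Values in every library were given for up to 10 members with the largest rise and 10 with the largest fall per comparison, and for others in role groups with mixed directions; of each further list, the called gene with the largest rise and fall and a few fixed pathway genes were named, 1 of which is not reported here. Csf1r, Cd68, Cx3cr1, Fabp6, Klk1, Siglech, S100a8, S100a9, Ly6g, Mcpt1, Mcpt2, Saa1 and Xist were named as checks. Alternatives were a pseudocount of 0.1 TPM, median scaling, quantile normalization, no filter or one of 5 TPM, a fit of all libraries, limma-voom on the recovered reads, a replicate block, and each library left out. Promoter windows were read with Biopython 1.88 and matched by symbol.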

Additional observations from a re-analysis of the deposited data

Results flagged for a closer look

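In 3 of 82 groups of 4 libraries, 1 library lay far from the other three by Dixon's test, where chance alone picks about 5% of groups. Irf7 was lowest in P14 library 4, at 93.9 TPM. Herc6 was highest in P14 library 5, at 4.05 TPM. Parp14 was lowest in P14 library 1, at 24.5 TPM.

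The effect of rmIl22 (over PBS) differed from that of age (P24 over P14) for 27 members by limma's test of the difference, in which each value is the rmIl22 effect minus the age effect on the log2 scale. Among the sensors and Irf7 the differences were -1.04 for Irf7, -1.27 for Ifih1, -0.90 for Dhx58, -1.53 for Ddx60 and -2.45 for Zbp1. In the OAS family they were -1.15 for Oas1a, -1.93 for Oas1g, -1.48 for Oas2, -2.64 for Oas3, -1.77 for Oasl1 and -1.26 for Oasl2. In the IFIT and ISG15 groups they were -1.94 for Ifit3, -2.12 for Isg15, -1.37 for Usp18 and -1.12 for Herc6. In the GTPases and the ADP-ribosylation group they were -1.75 for Mx1, -1.77 for Mx2, -0.98 for Irgm1, -0.79 for Parp9 and -0.90 for Dtx3l. In the remaining genes they were -1.44 for Rsad2, -1.12 for Cmpk2, -0.83 for Xaf1, -1.76 for Ifi44, -1.12 for Ifi35, -2.01 for Apol9a and -3.66 for Apol9b.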

How the results depend on the processing

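The number of members lower in rmIl22 than in PBS ileum was 21, and depended on the processing: 10 with TPM scaled to equal medians, 4 with no filter on low TPM (28616 genes tested in place of 14456), 10 with quantile normalization, 11 with limma-voom on recovered reads and 4 with the Xist class as a term. Leaving out 1 library gave 0 to 31, while the number of all genes called lower, 325 in the main fit, ran from 3 to 841. No member was higher in any of these fits, and none of the 21 calls held in all of them. The cause was not tested. The counts of all members called for age and for the difference of effects stayed within 1.5 times the reported ones under every alternative run for them (19 to 30 lower for the difference with 1 library left out), and no call of a member reversed in any fit. Counts of smaller lists moved more with age: from limma to limma-voom, rises went to 14 (not 8) in the interferon gamma list, 5 (not 2) in the upstream sensors and 14 (not 9) in the other interferon-stimulated genes, and IFIT falls to 1 (not 2). Over all genes, rises went to 3913 (not 2146) and falls to 4629 (not 6400).

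Nothing in the labels says what the shared numbers of rmIl22 and PBS libraries mark, so they were not taken as pairs. Deviations of same-numbered libraries had r = -0.07, 0.33 and -0.05, and those of other pairings ran from -0.34 to 0.40. With 3 libraries a group, these values cannot decide whether mice were paired. With the replicate block 18 members were lower and 0 higher. No paired analysis was possible for P24 against P14 because the table's columns do not carry the labels' replicate numbers. With 3 mice a group, small changes of single genes are beyond reach, and depth limits the interferon genes themselves.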

Other observations

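Among members with a RefSeq window, the response element core (GAAA, any 2 bases, GAAA, on either strand) was found in 4 of 8 that rose with age, 4 of 8 that fell and 9 of 15 that were not called. With rmIl22 it was found in 11 of 18 that fell and 6 of 13 that were not called.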
